A study of Mus musculus with 4 samples.

Results

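The Spp1 locus was described from the ATAC-seq peak lists of 4 libraries of sorted mouse microglia. Its members are the deposited peaks, of any strength, that overlap the Spp1 gene body plus 50 kb on each side. There were 39 such peaks among 677170 distinct peaks of the series. WT replicates 1 and 2 held 16 and 11 of them, and the IRF8KO replicates held 7 and 5; values of a pair are given with replicate 1 first. Members were selected on position and on having been called as a peak, which rests on pileup, and the locus was picked with results of these data known. Its values are therefore a description without a test. A comparison of 2 against 2 libraries could not in any case give an exact permutation p below 0.333.

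Osteopontin, the product of Spp1, is a secreted, phosphorylated glycoprotein that binds integrins and CD44. It belongs to the SIBLING family, whose genes lie side by side and are best known from bone and tooth. In the brain it is low in resting microglia and is made by microglia of the developing or injured brain, where it is counted among the genes of disease-associated microglia, and by macrophages of the brain borders. IRF8 is a transcription factor of myeloid cells that binds DNA with PU.1 at joined ETS and IRF sequences.

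ATAC-seq marks accessible DNA by the cuts that the Tn5 transposase makes in it. The WT and IRF8KO groups held 2 libraries each, from untreated C57BL/6 mice 3 months old, and the labels tell the groups apart by genotype. The labels name no knockout allele and no sex, and do not say whether replicates came from separate mice, so spreads may be technical. The comparison addresses how open chromatin differs between microglia with and without IRF8. The headers give 46948938 and 48896408 tags for WT and 78793572 and 66224648 for IRF8KO, a mean depth in IRF8KO 1.51 times that of WT. Accessibility is given as normalised pileup, the depth of extended cut sites at the tallest summit of a region for each 1000000 tags in the header.

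The gene body of Spp1 spans chr5:104435118-104441050, plus strand (GRCm38, GENCODE M21, ENSMUSG00000029304.14). Overlapping peaks of the 4 lists merged into 19 regions, of which 11 lay between genes and 8 touched Spp1 or its downstream neighbour Pkd2. A peak with a −log10 q of 2 or more is called strict, and 11 regions held a strict peak in at least 1 library. Regions are named here by the distance of their best summit from the Spp1 start site, with a minus sign for upstream positions. 7 of them had a strict peak in both WT libraries: 4 upstream regions at -9.1, -8.3, -4.4 and -2.0 kb, the promoter at -0.1 kb, a downstream region at +11.3 kb and the Pkd2 promoter at +24.4 kb.

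**Figure D1:**
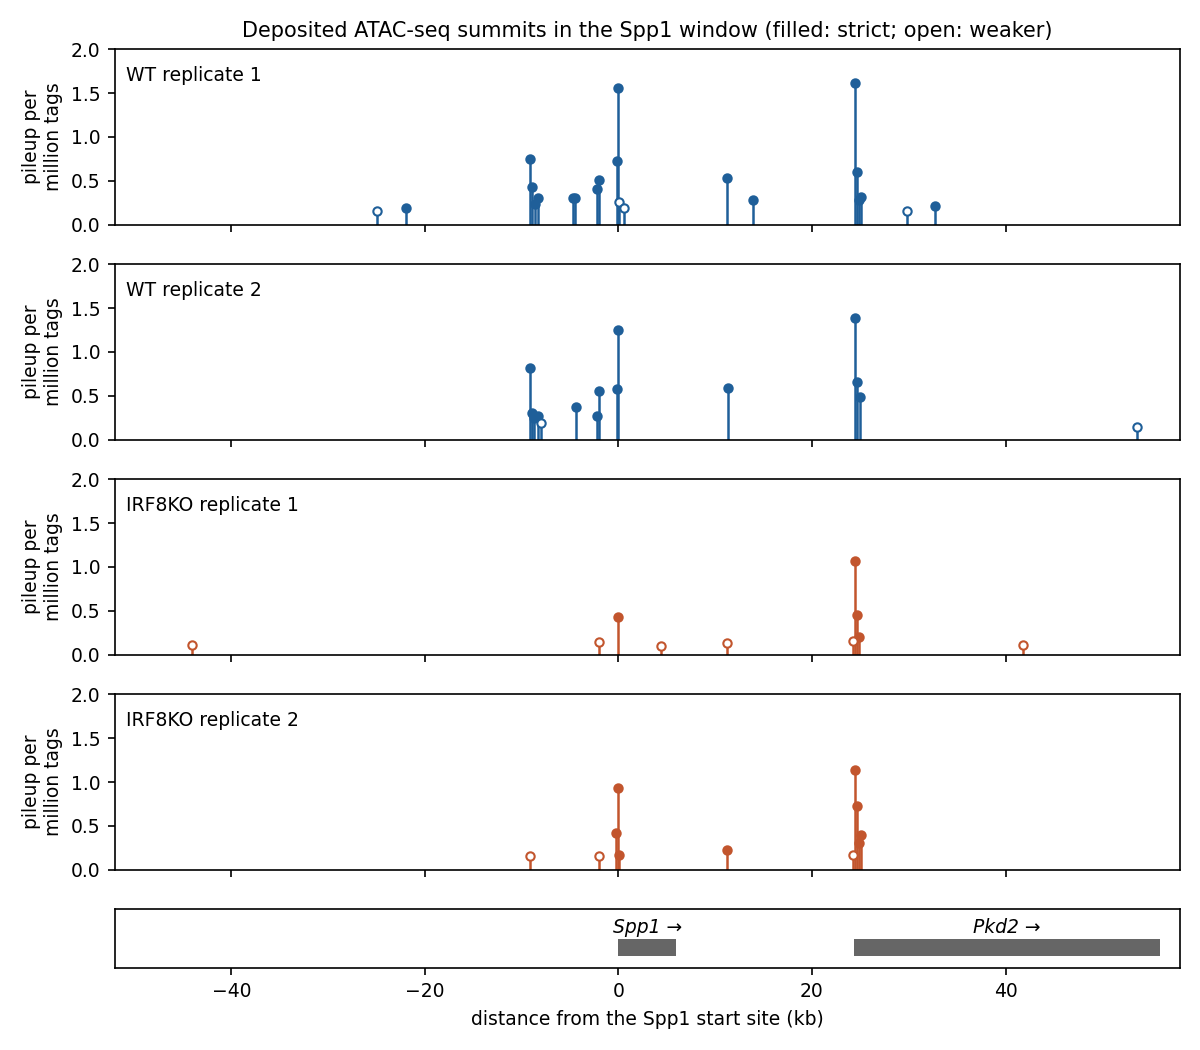
Summits deposited in the Spp1 window, by distance from the Spp1 start site (x axis, kb) and normalised pileup (y axis), 1 panel for each library, with the gene bodies below. Filled points are strict and open points weaker; the upstream summits at -9.1 to -2.0 kb stand out in the WT panels, whereas the Pkd2 promoter at +24.4 kb stands out in every panel.

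The bases around the best summits of the 6 Spp1 regions are shown because the results turn on these places. The 5 distal windows span 100 bp on each side of the best summit, and the promoter stretch is the 250 bases before the RefSeq start site. A window can run past the ends of the called region. All are on the plus strand of GRCm38 from RefSeq, and capitals mark matches, on either strand, to 13 motifs listed with the results.
-9.1 kb, chr5:104425897-104426097: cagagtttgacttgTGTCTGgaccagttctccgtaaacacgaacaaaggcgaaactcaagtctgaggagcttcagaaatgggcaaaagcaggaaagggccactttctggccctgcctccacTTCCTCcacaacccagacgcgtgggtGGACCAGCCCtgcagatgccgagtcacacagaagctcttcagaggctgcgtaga
-8.3 kb, chr5:104426716-104426916: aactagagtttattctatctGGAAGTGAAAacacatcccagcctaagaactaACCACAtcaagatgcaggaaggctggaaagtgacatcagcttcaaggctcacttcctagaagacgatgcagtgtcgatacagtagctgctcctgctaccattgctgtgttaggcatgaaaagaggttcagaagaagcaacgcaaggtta
-4.4 kb, chr5:104430589-104430789: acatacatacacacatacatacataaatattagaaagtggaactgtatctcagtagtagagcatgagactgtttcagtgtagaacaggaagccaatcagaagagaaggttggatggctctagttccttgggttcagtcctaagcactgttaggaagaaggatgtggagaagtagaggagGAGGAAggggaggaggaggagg
-2.0 kb, chr5:104433040-104433240: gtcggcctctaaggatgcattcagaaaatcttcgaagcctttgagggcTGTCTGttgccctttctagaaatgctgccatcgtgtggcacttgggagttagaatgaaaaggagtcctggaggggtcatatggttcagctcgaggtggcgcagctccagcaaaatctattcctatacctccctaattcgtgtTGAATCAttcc
Promoter, chr5:104434861-104435110: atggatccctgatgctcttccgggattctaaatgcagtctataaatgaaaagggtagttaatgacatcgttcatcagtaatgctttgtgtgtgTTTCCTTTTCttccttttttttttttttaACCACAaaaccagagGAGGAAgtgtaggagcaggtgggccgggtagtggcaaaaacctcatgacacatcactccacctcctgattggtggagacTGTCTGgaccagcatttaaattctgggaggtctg
+11.3 kb, chr5:104446302-104446502: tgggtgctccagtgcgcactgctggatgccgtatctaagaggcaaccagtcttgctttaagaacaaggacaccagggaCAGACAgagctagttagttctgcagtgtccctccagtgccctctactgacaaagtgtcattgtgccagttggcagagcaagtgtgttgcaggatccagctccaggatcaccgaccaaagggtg

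The -8.3 kb window, which was called in WT libraries alone, held the ETS-IRF element GGAANTGAAA, the sequence at which IRF8 and PU.1 bind together. The match was GGAAGTGAAA at 104426736 to 104426745, at -75 bp from the summit by its centre. It was the single ETS-IRF match among the 6 stretches shown. Of 155258 windows of the same length, drawn at the best summit of every region with a strict peak, 2.06% held this element.

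Motifs of other myeloid factors were scattered over the stretches. The promoter held a PU.1 core (GAGGAA) at 104434998 to 104435003, at -28 bp from the main summit, a RUNX core (TGTGGT) at -43 bp and an ISRE (GAAANNGAAA), a site for interferon regulatory factors, at -70 bp. Among 32851 RefSeq promoter stretches of 250 bases, 23.3% held the PU.1 core, 14.0% the RUNX core and 2.98% the ISRE. The -9.1 kb and -4.4 kb windows also held a PU.1 core and the -8.3 kb window a RUNX core, against 33.1% and 16.9% of all summit windows. The -4.4 kb core, at 104430768 to 104430773, lay outside the called region, which ended at 104430758. An AP-1 element (TGANTCA), the site of Fos and Jun proteins, lay in the -2.0 kb window, against 8.15% of all windows. This element, at 104433230 to 104433236, lay outside the called region, which ended at 104433220. SMAD cores (CAGACA) lay in the -9.1, -2.0 and +11.3 kb windows, against 19.2%, and in the promoter, against 17.1% of promoters. An NF-kB element (GGGNNNNNCC) lay in the -9.1 kb window, against 28.7%. No stretch held the CEBP (TTGCNNAA), MAF (TGCTGA), MEF2 (CTANNNNTAG), RBPJ (TGGGAA), E-box (CACGTG) or vitamin D receptor letters (GTTCANNNNGTTCA). Both strands were searched, the PU.1 core and the ETS-IRF element share the letters GGAA, and a match describes letters and not a bound site.

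Upstream of Spp1, every region strict in both WT libraries had a lower peak, or none, in each IRF8KO library. These regions were kept for being strict in WT, and the -9.1, -8.3, -4.4 and -2.0 kb regions had no strict IRF8KO peak, so this direction is in part set by the choice and is no support for a difference. The strongest upstream of the promoter was the -9.1 kb region, at 104425878 to 104426491 between genes. Its normalised pileup was 0.745 and 0.818 in WT replicates 1 and 2, the list of IRF8KO replicate 1 held no peak there, and IRF8KO replicate 2 had a weaker peak of 0.151. The WT mean of 0.782 ± 0.0513 (SD, n = 2) was 5.18 times the value in IRF8KO replicate 2. The deeper IRF8KO libraries would have shown pileups of 61.6 and 51.8 at the WT level, or 41.2 and 51.9 with the median ratio scaling described with the shared regions, where replicate 2 showed 10 and the list of replicate 1 held none. The summit of that weak peak, at -9124 bp, lay close to the main WT summits at -9105 and -9121 bp. The WT libraries also had shoulders on the side nearer to the gene, with 3 summits each in this region against 1 in IRF8KO replicate 2.

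Regions called in WT libraries alone followed at -8.3 kb and -4.4 kb. A region is called WT-specific here when both WT libraries had a strict peak and neither IRF8KO list had any peak, and IRF8KO-specific in the converse case. The -8.3 kb region, at 104426718 to 104426873, reached 0.298 and 0.266 normalised pileup in WT replicates 1 and 2. The -4.4 kb region, at 104430617 to 104430758, reached 0.298 and 0.368. Both are small peaks, with raw pileups of 13 to 18. Their −log10 q in WT replicates 1 and 2 was 5.37 and 4.23 at -8.3 kb and 2.08 and 4.84 at -4.4 kb. At -4.4 kb the WT replicate 1 peak thus only just passed the strict threshold of 2. At the WT level the IRF8KO libraries would have shown pileups of 22.2 and 18.7 at -8.3 kb and of 26.3 and 22.1 at -4.4 kb, and with the median ratio scaling 14.7 and 18.5 at -8.3 kb and 17.7 and 22.2 at -4.4 kb. The lowest deposited pileups of these libraries were 8 and 7.

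These were the 2 WT-specific regions among the 11 regions of the locus with a strict peak, and none was IRF8KO-specific. Of all 155258 regions with a strict peak on the autosomes and X, 5.59% were WT-specific and 3.87% IRF8KO-specific. Among the 19161 protein-coding genes with a peak in every library in the body and 50 kb flanks, 21.2% had at least 2 WT-specific regions, and 12.3% had these and no IRF8KO-specific one, as Spp1 did. At a −log10 q of 5 or more the locus held 0 WT-specific regions, because the -8.3 kb and -4.4 kb peaks fell under it in at least 1 WT library. Without WT replicate 2 the count was 7: the 4 regions called strict in WT replicate 1 alone were added, and a WT replicate 1 peak at 104426410 to 104426491 separated from the rest of the -9.1 kb region once the WT replicate 2 peak that joined them was left out.

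The -2.0 kb region, at 104432832 to 104433220, had a peak in all 4 libraries. Its normalised pileup was 0.511 and 0.552 in WT against 0.140 and 0.151 in IRF8KO. The groups did not overlap, and the IRF8KO peaks were weaker than the strict threshold in both libraries. The log2 ratio of the IRF8KO mean over the WT mean was -1.87, a 3.66-fold lower mean, from a WT mean of 0.532 ± 0.0290 and an IRF8KO mean of 0.145 ± 0.00806 (SD over n = 2). WT libraries had a second summit here, at -2237 and -2230 bp, which was not called in either IRF8KO library.

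The promoter, at 104434834 to 104435267, was accessible in every library. Among the 4 regions with a peak in every library it was the least even between the IRF8KO replicates. The region covers the start of the first exon of Spp1, in its 5′ UTR, and the start of Gm42793, a transcript model to be experimentally checked that begins at nearly the same place. Normalised pileup was 1.55 and 1.25 in WT against 0.432 and 0.936 in IRF8KO. All IRF8KO values lay below all WT values, but the IRF8KO libraries themselves differed 2.17-fold. The WT mean was 1.40 ± 0.217 and the IRF8KO mean 0.684 ± 0.357 (SD over n = 2), a log2 ratio of -1.03. Without IRF8KO replicate 1 the log2 ratio was -0.58, and without IRF8KO replicate 2 it was -1.70.

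The main promoter summit lay within a few bases in all libraries. It lay at -89 and -88 bp from the GENCODE start site in WT and at -95 and -89 bp in IRF8KO. A lesser summit further upstream, at -192, -188 and -199 bp, was called in both WT libraries and in IRF8KO replicate 2, with 0.724, 0.573 and 0.423 normalised pileup. It was not called separately in IRF8KO replicate 1.

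Downstream, the +11.3 kb region at 104446267 to 104446512 lay between Spp1 and Pkd2. Normalised pileup was 0.532 and 0.593 in WT against 0.127 and 0.227 in IRF8KO. The groups did not overlap, and the peak was strict in IRF8KO replicate 2 and weaker in replicate 1. The log2 ratio was -1.67, from a WT mean of 0.563 ± 0.0428 and an IRF8KO mean of 0.177 ± 0.0704 (SD over n = 2). In order of the WT mean the Spp1 regions ran from the promoter through -9.1, +11.3, -2.0 and -4.4 to -8.3 kb, and neither the +11.3 and -2.0 kb nor the -4.4 and -8.3 kb regions differed beyond their spread in WT.

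**Figure D2:**
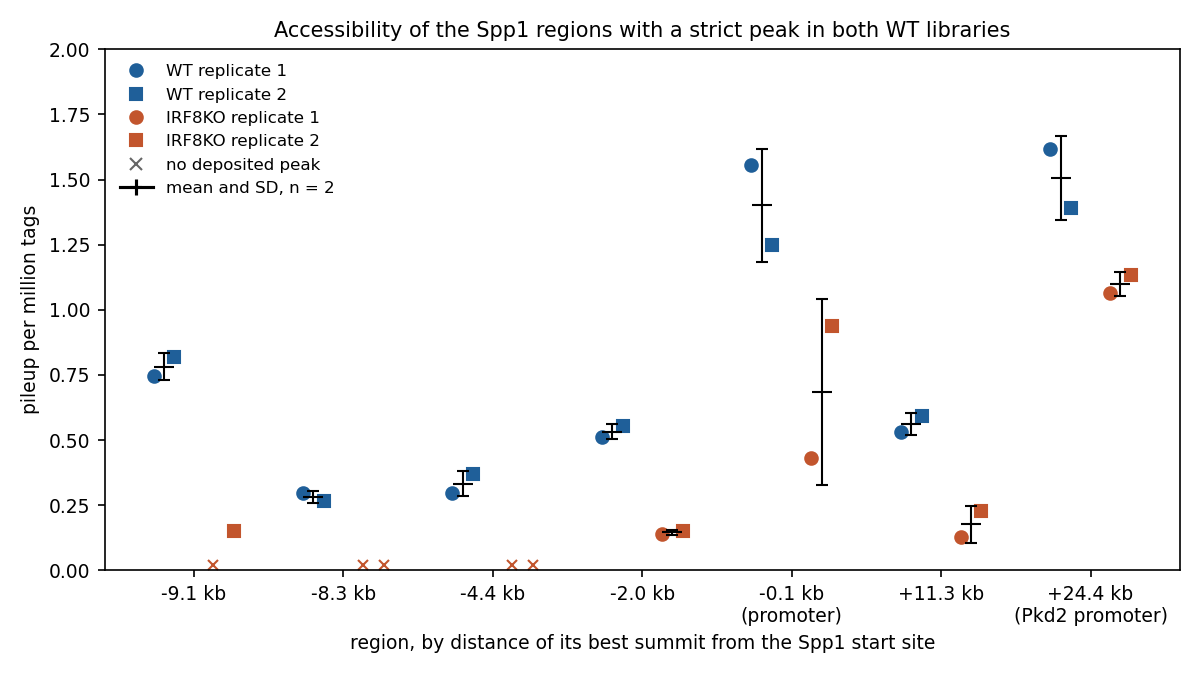
Normalised pileup (y axis) of the 7 regions with a strict peak in both WT libraries (x axis, by distance of the best summit from the Spp1 start site), 1 point for each library, with bars for the mean and SD of the 2 libraries and crosses where a list held no peak. Where IRF8KO points are drawn they lie below the WT points, the -8.3 and -4.4 kb regions have crosses for both IRF8KO libraries, and the promoter shows the widest gap between IRF8KO replicates, 0.432 against 0.936.

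The promoter of Pkd2, which encodes the calcium-permeable channel polycystin-2, lies in the same window and differed less. Normalised pileup was 1.62 and 1.39 in WT against 1.07 and 1.13 in IRF8KO, a log2 ratio of -0.45. The raw pileups of 76, 68, 84 and 75 in that order were nearly level. The difference was close to that of the whole genome, since the median log2 ratio over the 58732 regions with a peak in all 4 libraries was -0.28.

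Because the median was shifted, the libraries were also scaled by the median ratio over those 58732 regions, which brought that median to -0.00387. The scale factors of the 4 libraries were 1.21, 1.02, 0.736 and 1.10, so that IRF8KO replicate 1 had the lowest normalised pileup at shared regions. After this scaling the log2 ratio was -1.56 at -2.0 kb, -1.44 at +11.3 kb, -0.81 at the Spp1 promoter and -0.13 at the Pkd2 promoter. The promoter values were then 1.28 and 1.23 in WT against 0.586 and 0.849 in IRF8KO, which did not overlap, while those of Pkd2 did. By the deposited fold enrichment, which sets pileup against local background within each library, the promoter values were 16.3 and 14.7 in WT against 8.59 and 16.7 in IRF8KO, which overlapped, with a log2 ratio of -0.30. By the same measure the log2 ratio was -1.08 at -2.0 kb, -1.44 at +11.3 kb and -0.06 at the Pkd2 promoter.

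Of the 4 regions of the locus with a peak in all libraries, 3 were lower in IRF8KO by at least 2-fold without overlap and none was higher. Over all 58732 such regions the shares were 12.6% and 5.38%. All 4 were lower without overlap at any size, against 37.2% of all regions. With the median ratio scaling 2 of the 4 passed 2-fold, the -2.0 and +11.3 kb regions, against 7.85%. The same 2 passed by fold enrichment. A log2 ratio at or below that of the -2.0 kb region was found at 2.97% of the 58732 regions, at or below that of the +11.3 kb region at 4.08% and at or below that of the promoter at 11.9%. The median log2 ratio of the 4 regions was -1.35.

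**Figure D3:**
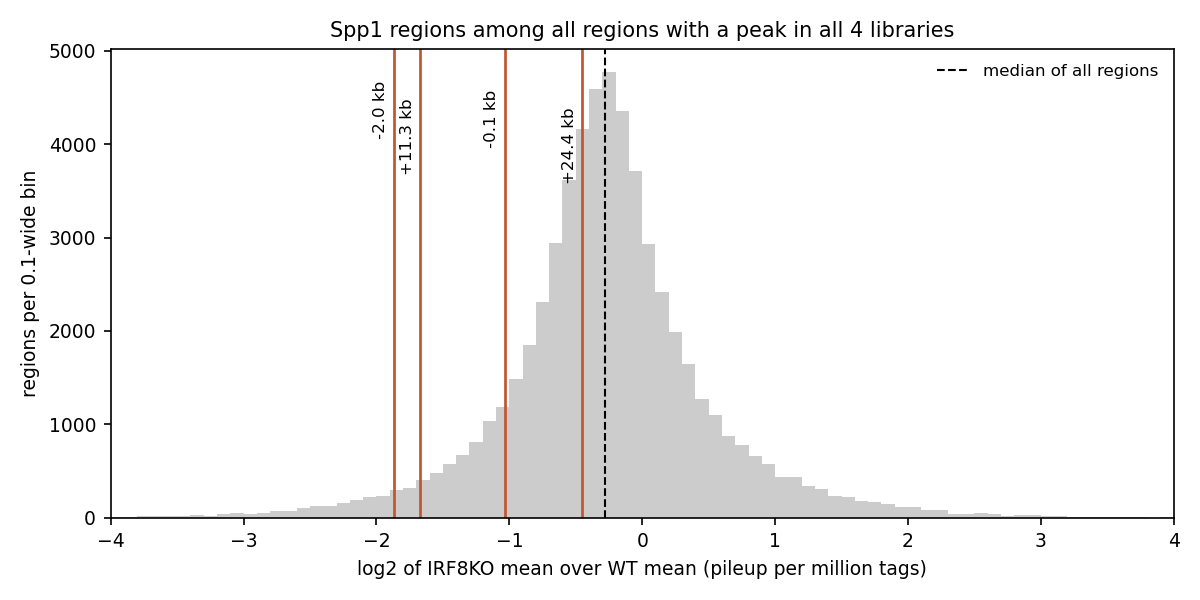
Distribution of the log2 ratio of the IRF8KO mean over the WT mean of normalised pileup (x axis) over the 58732 regions with a peak in all 4 libraries (y axis, regions per bin), with the median dashed and the 4 Spp1-window regions as lines. The -2.0 and +11.3 kb regions lie in the lower tail at -1.87 and -1.67, and the Pkd2 promoter at -0.45 lies near the median.

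A second reading of the locus came from the local background, the mean depth of cut sites in the 10000 bp around a summit, which the peak caller uses and which can be recovered from pileup and fold enrichment. It includes the peaks themselves and is never entered below the genome background, so a ratio of 1 means a local level at or below it. At the main promoter summit it was 1.93 and 1.69 times the genome background in WT replicates 1 and 2, 1 in IRF8KO replicate 1 and 1.08 in IRF8KO replicate 2. At the -2.0 kb summits it was 1.91 and 1.61 in WT against 1 and 1.05 in IRF8KO. Both IRF8KO libraries lay below both WT libraries at these summits. The 10000 bp windows of the promoter and -2.0 kb summits largely overlap, so they are not separate observations. How often the groups separate in this way over all regions was not counted. Over the whole list of a library, the median ratio was highest for WT replicate 1, at 1.28. It was 1.06 for WT replicate 2, 1.09 for IRF8KO replicate 1 and 1.08 for IRF8KO replicate 2. At the Pkd2 promoter the background was 1.92 and 1.94 in WT against 1.46 and 1.58 in IRF8KO, above the genome level in all 4 libraries. At +11.3 kb it was 1 in every library.

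**Figure D4:**
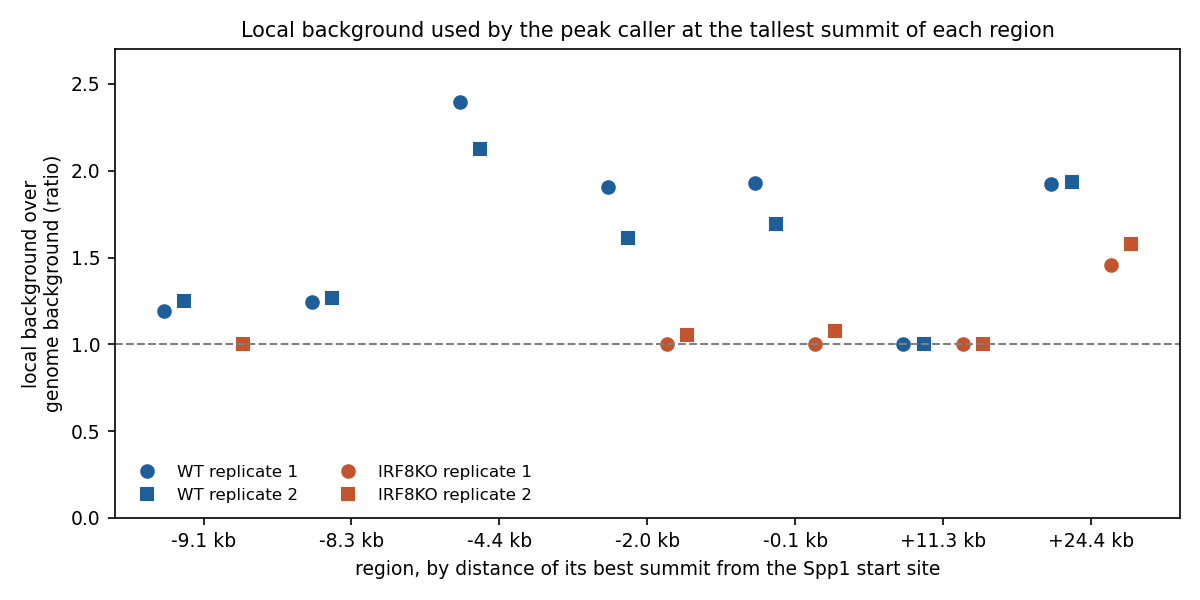
Local background of the tallest summit in each region relative to the genome background of the library (y axis, ratio; the dashed line is the lowest value the caller enters), by region (x axis), 1 point for each library with a peak. At -2.0 kb and the promoter, whose background windows largely overlap, WT points lie at 1.61 to 1.93 and IRF8KO points at 1 to 1.08. The median ratio of the whole list was 1.28 for WT replicate 1 and 1.06 to 1.09 for the other libraries. The WT points at -4.4 kb, at 2.40 and 2.13, have no IRF8KO point beside them.

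The other 12 regions of the window were each called in a single library, 7 in WT replicate 1, 2 in WT replicate 2, 3 in IRF8KO replicate 1 and 0 in IRF8KO replicate 2. Their pileups ran from 7 to 14, and 4 of them were strict, all in WT replicate 1: at -22.0, -4.7, +13.9 and +32.7 kb. Their normalised pileup was 0.192, 0.298, 0.277 and 0.213 in that order. The 8 weak regions lay at 0.102 to 0.192. Regions called in a single library made up 63.2% of the locus and 69.0% of all 388087 merged regions. Within the Spp1 gene body past the promoter there were 2 such peaks, in an intron at +0.6 kb in WT replicate 1 and over a coding exon at +4.4 kb in IRF8KO replicate 1. At the edges, the outermost regions inside the window had 0.114 and 0.143 normalised pileup and the nearest ones outside had 0.164 and 0.140, each in a single library.

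Summed over all regions of the window, normalised pileup was 7.03 and 5.56 in WT against 2.09 and 2.60 in IRF8KO, a log2 ratio of -1.42. A region without a peak adds nothing to this sum, although its true depth is not 0. The groups did not overlap. Among the 19161 protein-coding genes the median log2 ratio was -0.28, and 1.80% of genes had a ratio at or below that of Spp1. Without the Pkd2 promoter region, a choice made after seeing the data, the sums were 5.41 and 4.17 in WT against 1.03 and 1.46 in IRF8KO, a log2 ratio of -1.94.

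The labelled cell type was checked at the promoters of marker genes, which also bears on the reading of the locus. All 8 microglia markers had a strict promoter peak in both WT libraries, and 7 did in each IRF8KO library, the exception being Sall1, a microglial identity factor. Their summed promoter normalised pileup was 13.2 to 17.4 in WT and 6.36 to 10.7 in IRF8KO. Of 6 border macrophage markers, Cd163, Lyve1 and Cbr2 had no strict promoter peak in any library. The scavenger receptor gene Mrc1, the chemokine gene Pf4 and Ms4a7 had one in both IRF8KO libraries, and Mrc1 and Pf4 in both WT libraries. The summed level of this list was 0.757 to 1.09 in WT and 2.42 to 3.87 in IRF8KO, higher in the genotype with the lower Spp1 values. The part of these marker levels in the Spp1 result was not tested. In bulk libraries fewer cells with an open site and less opening per cell cannot be told apart. The monocyte, neutrophil and lymphocyte lists had at most 1 gene with a strict promoter peak in any library. The oligodendrocyte list had 1 or 2 such genes of 5, and its summed level was 1.64 to 2.04 in WT and 0.495 to 1.15 in IRF8KO. The astrocyte, neuron and endothelium lists had 1 to 3 such genes of 4.

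The other SIBLING genes, which encode matrix proteins of bone and tooth and lie upstream of Spp1 on the same chromosome, had little open chromatin. None of Dspp, Dmp1, Ibsp and Mepe had a strict promoter peak in any library. The summed normalised pileup in the gene body and 50 kb flanks of Mepe, the nearest, was 2.47 and 2.84 in WT against 0.140 and 0.453 in IRF8KO. That of Ibsp was 2.28 and 2.86 in WT against 0.254 and 0.619 in IRF8KO. All 4 genes were lower in IRF8KO without overlap both by normalised pileup and with the median ratio scaling, against 38.6% and 27.8% of the 19161 protein-coding genes; with the scaling their median log2 ratio was -2.12. Their windows share peaks with each other, so they are not 4 separate observations. Lower values were not particular to the family: the neighbours Pkd2, whose window shares regions with that of Spp1, and Sparcl1, on the other side of the cluster, were also lower without overlap under both scalings. The log2 ratio of the Sparcl1 sums was -0.61, or -0.33 with the scaling, and its window held 3 WT-specific regions.

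Receptors of osteopontin differed from this. All 10 receptor genes had at least 1 IRF8KO-specific region in the body and flanks, against 35.9% of genes, and 6 had a WT-specific one, against 47.5%. Of the 295 regions of the list with a strict peak, 18 were IRF8KO-specific (6.10%), against 3.87% of all regions, and 13 WT-specific (4.41%), against 5.59%, counting a region once for each gene. These genes held 16 to 111 regions each, against 19 at Spp1. With the median ratio scaling the summed pileup was higher in IRF8KO without overlap for 7 of them, against 28.5% of genes, and lower without overlap for 0, against 27.8%. By normalised pileup without that scaling 2 were higher without overlap, Itgb3 and Itga4, against 6.7% of genes, and 0 lower, against 38.6%. The median log2 ratio of the list was 0.23 with the scaling and -0.04 without it. At the promoter of Itga4, the α4 integrin chain of leukocytes, normalised pileup was 2.77 and 2.23 in WT against 4.40 and 6.61 in IRF8KO. At the promoter of Cd44, the hyaluronan receptor, it was 0.256 and 0.307 in WT against 0.520 and 1.16 in IRF8KO. The promoter of Itgav, whose αv chain pairs with several β chains to bind osteopontin, had 4.35 and 4.70 in WT against 3.45 and 5.19 in IRF8KO, which overlapped. Promoters and sums did not always differ alike: at Itgb3, the β3 chain, the promoter had 0.618 and 0.716 in WT against 0.267 and 0.423 in IRF8KO, while the sum was higher in IRF8KO.

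Of 6 genes for proteins that cut or modify osteopontin, 1 had a WT-specific and 4 an IRF8KO-specific region, against 47.5% and 35.9% of genes. Of their 46 regions with a strict peak, 1 was WT-specific (2.17%), against 5.59% of all regions, and 4 IRF8KO-specific (8.70%), against 3.87%. The windows of Mmp3 and Mmp12 overlap, so these genes are not separate observations. The promoter of Mmp12, the macrophage metalloelastase, had 1.17 and 0.941 normalised pileup in WT against 0.279 and 0.649 in IRF8KO. That of Fam20c, the kinase that phosphorylates secreted proteins, had 1.06 and 1.21 in WT against 1.45 and 1.56 in IRF8KO. F2, which encodes thrombin, was the 1 gene of the 6 with a lower summed pileup without overlap, with the median ratio scaling, against 27.8% of genes, and without it, against 38.6%. The higher genes changed with it: Mmp9 and Mmp12 were higher without overlap after scaling, against 28.5% of genes, and overlapped without it, where Fam20c alone of this list was higher, against 6.7%. The median log2 ratio of the list was 0.45 with the scaling and 0.16 without it.

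Genes that share the disease-associated programme with Spp1 in other studies did not share 1 direction: Apoe, Clec7a and Igf1 had higher mean sums in IRF8KO under both scalings, and Itgax and Fabp5 lower ones. Of 10 such genes, 8 had a WT-specific and 8 an IRF8KO-specific region, against 47.5% and 35.9% of genes. Of their 224 regions with a strict peak, 5.80% were WT-specific, near the 5.59% of all regions, and 7.59% IRF8KO-specific, against 3.87%. With the median ratio scaling 6 had a higher and 2 a lower summed pileup in IRF8KO without overlap, against 28.5% and 27.8% of genes. Without it 0 were higher and 2 lower, against 6.7% and 38.6%. The median log2 ratio was 0.20 with the scaling and -0.04 without it. At the promoter of Apoe, the lipid carrier, normalised pileup was 0.405 and 0.429 in WT against 1.10 and 1.81 in IRF8KO. The C-type lectin gene Clec7a had 1.34 and 1.06 in WT against 1.26 and 2.05 in IRF8KO, which overlapped. The 2 lower genes were Itgax, the αX integrin chain, and Fabp5, a fatty acid carrier. The Itgax promoter had 2.49 and 1.64 in WT against 0.393 and 0.408 in IRF8KO, and the Fabp5 promoter had 2.32 and 1.70 in WT against 0.673 and 0.982 in IRF8KO.

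**Figure D5:**
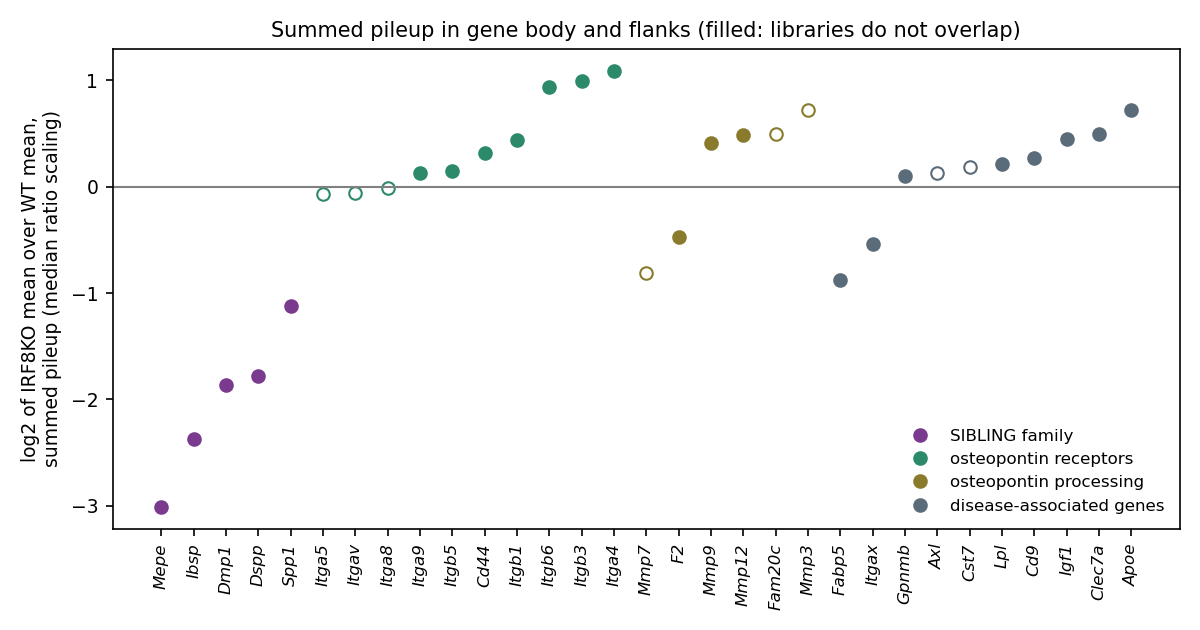
Log2 ratio of the IRF8KO mean over the WT mean of summed pileup in gene body and 50 kb flanks, after median ratio scaling (y axis), for the SIBLING family, osteopontin receptors and processing genes and disease-associated genes (x axis). Filled points mark genes whose WT and IRF8KO libraries do not overlap after this scaling, without which 2 receptor, 1 processing and 0 disease-associated genes were higher without overlap; Spp1 lies at -1.12, below every gene of the 3 other groups and above the 4 other SIBLING genes.

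The 5 genes whose summed pileup varied most like that of Spp1 over the 4 libraries were Ank1, Col6a6, Pou2f3, Fbxo22 and Tat. Likeness was the Euclidean distance between log2 sums centred on the mean of each gene, over 19157 genes whose windows do not overlap that of Spp1. The distances ran from 0.0572 for Ank1 to 0.0986 for Tat. The 4 libraries differ in depth, which all genes share. Tat, the tyrosine aminotransferase gene, had sums of 2.28 and 1.78 in WT against 0.660 and 0.770 in IRF8KO.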

How the data were processed

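ATAC-seq was measured in 4 libraries of FACS-sorted microglia, 2 labelled WT and 2 IRF8KO. Per the file headers, peak calling was run by the authors for every library on its own, using MACS2 2.1.1.20160309, a p cutoff of 0.01 and no control sample; the shift was 37 bp and the extension 73 bp, a window centred on the read end. Bowtie2 and the build mm10 (GRCm38) are named in the submitters' processing notes. No peak on the 20 chromosomes ran past the GRCm38 chromosome ends.

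The deposited pileup is a signal, a raw depth not scaled for library size. The deposited fold enrichment is a ratio, which equals (pileup + 1) / (local background + 1); no recovered background fell below the genome value by more than rounding. The deposited p and q are −log10 values; the headers say q was not calculated, but the column held values that rise with p. Lists were compared by pileup for each 1000000 tags, which assumes that pileup scales with tags, after median ratio scaling, and by fold enrichment.

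Overlapping peaks of all lists (at least 1 bp, autosomes and X) were merged with Python 3.11.15 and pandas 2.3.3, and the classes were tested on simulated data. Libraries were grouped by their titles. The tag size was 50 bp in WT and 49 bp in IRF8KO, and depth also followed genotype, so these cannot be told apart from it. Named were all regions with a strict peak, fixed lists of pathway genes and cell type markers and the 5 genes most like Spp1; no test was run. Members and lists were chosen with earlier results of these data known. Alternatives changed the threshold, merging, window, scaling and libraries used.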

Additional observations from a re-analysis of the deposited data

How the results depend on the processing

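The summed accessibility of the locus was lower in IRF8KO in all 11 alternatives. Its log2 ratio of -1.42 became -1.12 with median ratio scaling, -1.04 by fold enrichment and -1.95 with 10 kb flanks; without the Pkd2 promoter region it was -1.94, or -1.65 with median ratio scaling as well. The last 2 settings were chosen after seeing the data. Leaving out a library gave -1.63 to -1.25. The number of WT-specific regions was 0 at a −log10 q of 5 and 4 with 100 kb flanks, and leaving out a library gave 2 to 7; the cause of the loss is that both small peaks missed the higher threshold. The number of IRF8KO-specific regions was 0 in every alternative run. Regions lower by 2-fold numbered 2 or 3 in all alternatives. Without IRF8KO replicate 1 the number stayed at 3, but the promoter no longer passed and the -9.1 kb region, which that library lacks, entered.

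The 4 regions with a peak in every library kept a negative log2 ratio in all 7 alternatives each: -2.58 to -1.08 at -2.0 kb, -1.70 to -0.30 at the promoter, -2.15 to -1.31 at +11.3 kb and -0.56 to -0.06 at the Pkd2 promoter. At -2.0 kb the value of -2.58 came from summing over all summits and that of -1.08 from fold enrichment. Peaks of 7 to 14 pileup are small, since the lowest deposited pileups were 6 to 8, and their dependence on depth was not tested. No paired analysis was made: the results come from no test, and the labels do not say that replicate numbers mark a shared source.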

Other observations

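The stretch from 50 to 100 kb before Spp1, which reaches to the end of Mepe, lies inside the window of Mepe, so its peaks are already counted in the sums given for that gene and are no further support. It held 17 merged regions, with a peak at 11 and 10 of them in WT replicates 1 and 2 and at 0 and 2 in IRF8KO replicates 1 and 2. The summed normalised pileup was 2.47 and 2.23 in WT, and 0.453 in IRF8KO replicate 2, with nothing called in replicate 1. Of its 9 regions with a strict peak 2 were WT-specific, against 5.59% of all such regions, and 0 IRF8KO-specific, against 3.87%. Both WT-specific regions lie between genes and also inside the window of Ibsp: one at 104344929 to 104345112, with 0.341 and 0.307 in WT, and one at 104350108 to 104350255, with 0.192 and 0.368. These were looked for after the data were seen and carry no test.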
